A study of Gallus gallus with 12 samples.

Results

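The comparison described here set 4 arrays of chick neural tube cells given NEUROG2 against 4 arrays of cells given NEUROG2AQ, to separate changes that needed an intact basic region in the factor from changes that both forms made. These were 8 of the 12 arrays of the study, chosen by their titles, and the other 4 arrays held cells given GFP alone. Every embryo carried a plasmid that made GFP, introduced by electroporation into the neural tube inside the egg at stage HH10 to HH11. The groups were NEUROG2 with GFP, NEUROG2AQ with GFP and the control vector with GFP. Cells were collected 6 hours later by sorting for GFP, and each array was a biological replicate pooled from the neural tubes of 20 embryos. The labels do not agree on the range of somite numbers at electroporation. They give no sequence or species of origin for the inserts, and a pool mixes all regions of the tube that took up plasmid.

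NEUROG2 (neurogenin 2) is a proneural transcription factor of the basic helix-loop-helix family. The helix-loop-helix part pairs it with E proteins, and the basic region of the pair contacts short DNA sites called E-boxes, through which it turns on Notch ligands and a cascade of neuronal genes in neural tube progenitors. Cells that follow this cascade stop dividing and differentiate, while the ligands they display keep their neighbours in the progenitor state through Notch. The labels give NEUROG2AQ by name alone. In other work that name denotes an asparagine and arginine of the basic region changed to alanine and glutamine, which leaves the helix-loop-helix part in place and disables DNA binding.

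The values are log2 signals of Affymetrix chicken arrays, with array medians between 2.81 and 2.90. Signals near or under those medians are treated as close to background, and 4 arrays a group limit the precision of each value. On a principal component analysis the 4 NEUROG2 arrays stood apart on the first component (32.0 to 44.1), against -22.2 to -15.3 for NEUROG2AQ and -25.8 to -6.3 for control arrays. NEUROG2AQ replicate 4 and control replicate 1 stood away from their own groups on the second component, at 30.2 and 52.3. RNA quality was read from the actin and EF1A control probes as their 3' minus 5' log2 signal, a larger value meaning more degraded RNA. It was 1.73 ± 0.15 in NEUROG2, 1.95 ± 0.29 in NEUROG2AQ and 1.80 ± 0.12 in control arrays (SD, n = 4). A two-sided exact permutation test between the 2 forms gave p = 0.229 (0.371 after adjustment over 2 such measures), where the smallest p possible is 0.0286. The NEUROG2 probe set read 3.90 ± 0.17 in NEUROG2, 4.64 ± 0.10 in NEUROG2AQ and 5.57 ± 0.36 in control arrays (log2 signal, SD, n = 4). It was lower in both overexpression groups, so it gives no measure of the plasmid inserts, does not check the labels and does not show whether the forms were made in equal amounts. The progenitor genes SOX3 and PAX6 read above every array median in all 12 arrays.

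Cells given NEUROG2 differed widely from cells given NEUROG2AQ, while few genes were called between NEUROG2AQ cells and control cells. NEUROG2 cells had more RNA of the Notch ligands DLL1 and JAG1 and of 16 of 31 early neuronal genes. They had less RNA of 31 of 44 genes of G2 and M phase, 27 of 51 DNA replication genes and 8 of 28 HOX and TALE genes. All gene lists were chosen with earlier results of these data known, so their counts are descriptions. The log2 difference, NEUROG2 minus NEUROG2AQ, passed an adjusted p of 0.05 in limma for 2286 of 37693 probe sets (6.06%), 1385 higher (3.67%) and 901 lower (2.39%). In genes, each standing for its brightest probe set, 1260 of 13008 were called (9.69%), 722 higher (5.55%) and 538 lower (4.14%). A call below means a gene past that threshold, and differences are log2 values ± SE from the same fit. The p-values measure the spread between replicate pools. Where a named gene had further probe sets, none of these was called in the opposite direction. Those of CHN2, TNFAIP2, JAG1, E2F8, CCNA2, NEK2, TP53INP1, BCL2L1, SOX10 and DLX5 were not called at all.

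The increases were larger than the decreases. Among the genes called higher, the median log2 difference was 0.81, and 73 differed by at least 2 and 22 by at least 3 on the log2 scale. Among the genes called lower the median size was 0.67, and 1 gene, CYP26A1, differed by at least 2. Genes called lower were also brighter, with a median mean signal of 6.56, against 5.59 for genes called higher and 4.46 for genes not called. The count of lower probe sets fell to 583 without NEUROG2 replicate 3. Leaving out both NEUROG2AQ replicate 4 and control replicate 1 brought it to 1461 of 2957 calls.

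**Figure D1:**
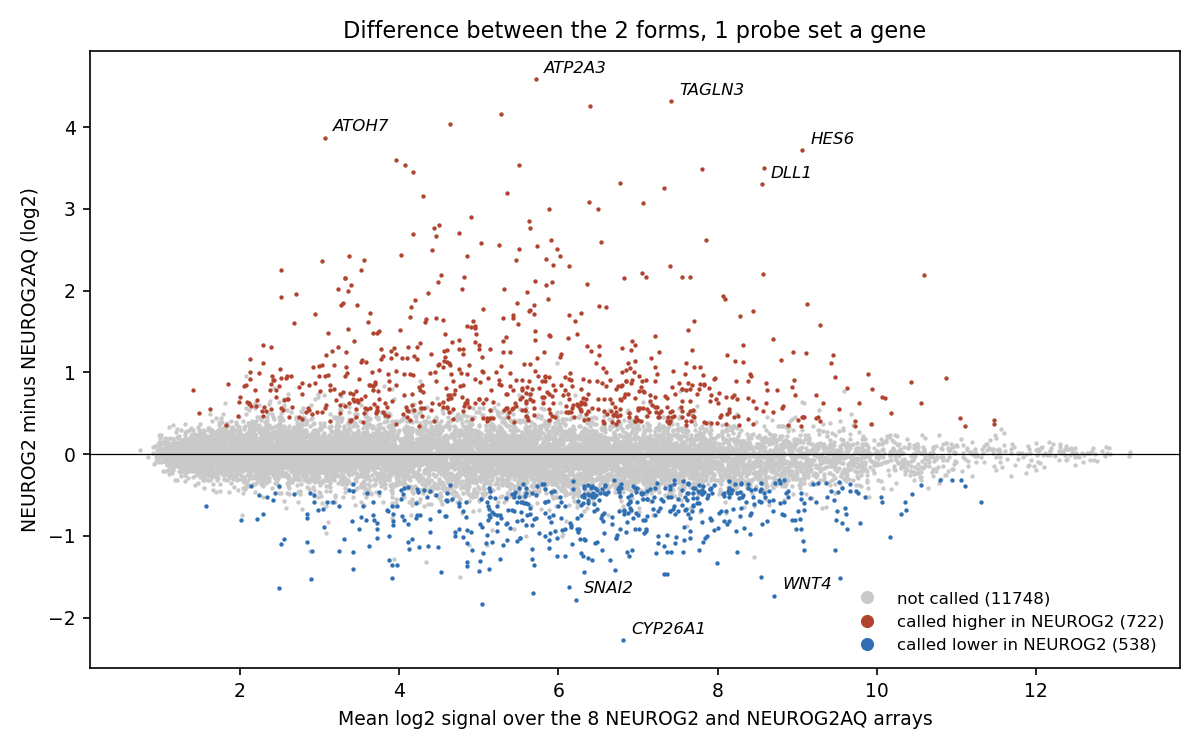
Log2 difference between NEUROG2 and NEUROG2AQ for each of 13008 genes, against its mean log2 signal over the 8 arrays, with called genes in colour. The 722 genes called higher reach 4.59 on the log2 scale, while the 538 called lower reach -2.27.

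The gene with the greatest difference was ATP2A3, a calcium pump of the endoplasmic reticulum. Its log2 signal was 7.87, 8.21, 8.18 and 7.82 in the NEUROG2 arrays, against 3.02, 3.37, 4.07 and 3.25 in the NEUROG2AQ arrays and 4.46, 4.20, 3.82 and 3.71 in the control arrays. All 4 NEUROG2 arrays lay far above the other 8, and the 2 other groups overlapped. The difference from NEUROG2AQ was 4.59 ± 0.21, or 24.1-fold (adjusted p = 1.92e-09). That size rests on 1 probe set, since the 2 others of the gene differed by 0.27 and 0.88, with 1 of them called. TAGLN3, an actin-binding protein of young neurons, followed at 4.32 ± 0.15 (20.0-fold). BPIFB2, of a family of secreted lipid-binding proteins, differed by 4.26 ± 0.17, and the matrix protein gene POSTN by 4.16 ± 0.30. HES6, a factor that counters the repressor HES1, was 3.72 ± 0.13 higher, and TNFAIP2, a gene known as induced by tumour necrosis factor, 3.54 ± 0.14 higher.

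Some of the greatest differences started from almost no signal. ATOH7, which is known for making ganglion cells in the retina, read 4.65, 5.20, 5.52 and 4.66 in NEUROG2 arrays, against 1.10, 1.27, 1.08 and 1.08 in NEUROG2AQ arrays and 1.32, 1.06, 1.19 and 1.19 in control arrays (log2 signal). Only the NEUROG2 arrays lay above the array medians, and the NEUROG2AQ and control arrays were alike near the bottom of the scale. The water channel gene AQP1 (4.04 ± 0.35), CHN2, a brake on the GTPase Rac (3.60 ± 0.16), and TMEM140 (3.53 ± 0.14) had NEUROG2AQ means between 2.17 and 2.62, below the array medians. The sizes of these 4 differences are therefore uncertain.

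The decreases were led by CYP26A1, the enzyme that breaks down retinoic acid. Its log2 signal was 5.85, 5.84, 5.16 and 5.84 in NEUROG2 arrays, against 8.17, 7.82, 8.30 and 7.48 in NEUROG2AQ arrays and 8.06, 7.82, 8.38 and 8.23 in control arrays. NEUROG2AQ arrays overlapped the control arrays, and NEUROG2 arrays lay below both, with a difference of -2.27 ± 0.19 (4.83-fold lower than with NEUROG2AQ, adjusted p = 1.72e-06). PKDCCA, related to a secreted kinase of mice, differed by -1.83 ± 0.13, and the WNT signal gene WNT4 by -1.73 ± 0.13. SNAI2, a repressor active in neural crest cells as they leave the neural tube, differed by -1.78 ± 0.14.

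Genes of dividing cells stood among the 10 greatest decreases. SGO1, which protects the cohesion of sister chromatids, differed by -1.70 ± 0.22, and GSG2, the haspin kinase of mitotic histone H3, by -1.63 ± 0.15. The linker histone gene HIST1H111L differed by -1.52 ± 0.19 and F3, tissue factor, by -1.52 ± 0.20. The cytokine gene TNFSF15 (-1.64 ± 0.29) and the scaffold gene NEDD9 (-1.53 ± 0.17) had NEUROG2 means of 1.68 and 2.14, close to background. NEDD9 had 3 further probe sets, of which 1 was also called, and neither of the 2 further probe sets of TNFSF15 was.

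All 20 of these genes were also called between NEUROG2 and control, in the same direction. Both comparisons use the same 4 NEUROG2 arrays, so the choice of genes favoured this agreement, which is a description only. The comparisons of each form with control share the 4 control arrays, so their values are given side by side and not related to each other. ATP2A3 was 3.97 ± 0.21 above control with NEUROG2 and -0.62 ± 0.21 with NEUROG2AQ (adjusted p = 0.507), and CYP26A1 was -2.45 ± 0.19 with NEUROG2 and -0.18 ± 0.19 with NEUROG2AQ (adjusted p = 0.914). Of the 20, HES6 and TAGLN3 were called between NEUROG2AQ and control, both lower with NEUROG2AQ.

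**Figure D2:**
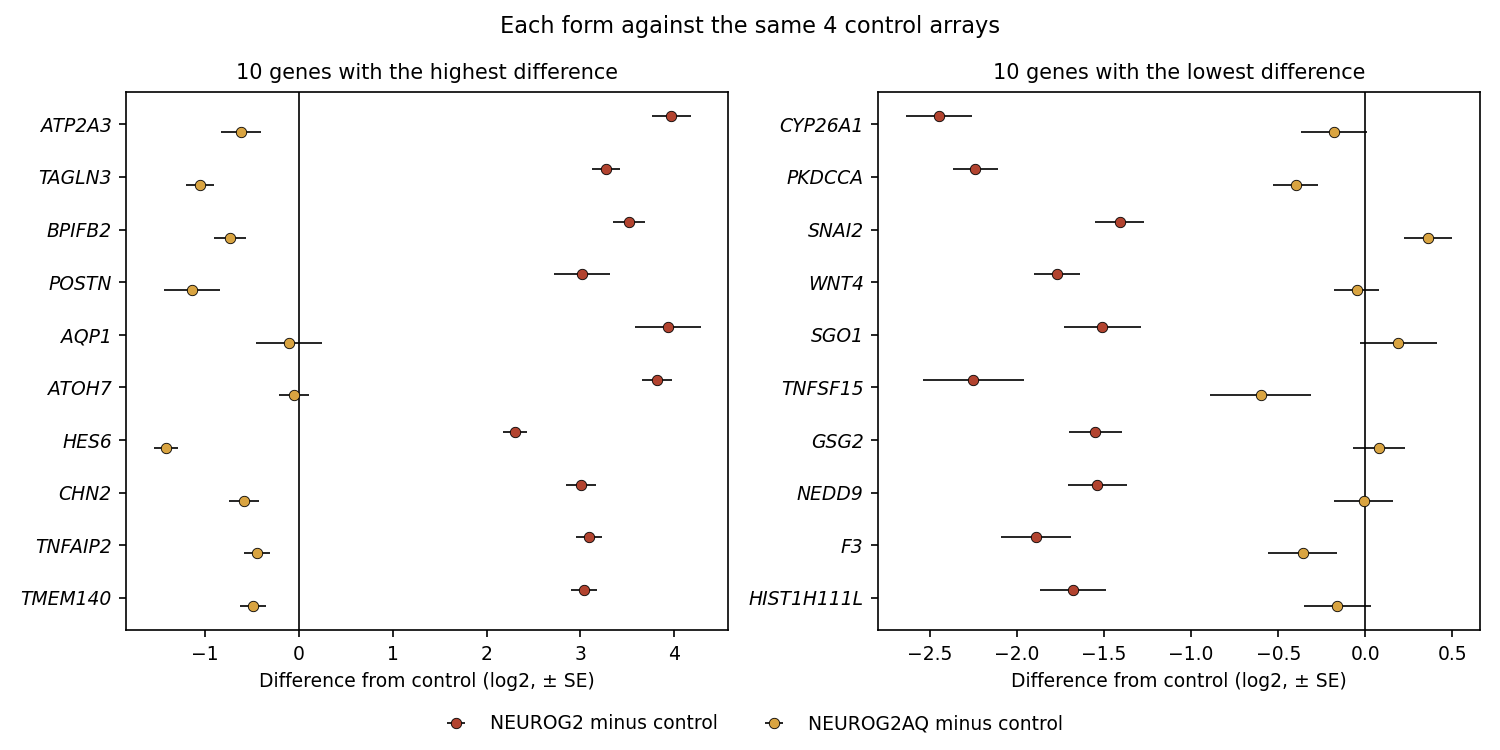
Log2 difference from control ± SE of the 10 genes with the highest (left) and the 10 with the lowest (right) difference between the forms, for NEUROG2 and for NEUROG2AQ (4 arrays each). NEUROG2 values lie between 2.30 and 3.97 on the left and between -2.45 and -1.41 on the right, and NEUROG2AQ values lie between -1.42 and 0.36 in both panels.

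Sorting genes by all 3 comparisons gave a large class and several small ones. Between NEUROG2 and control, 1377 of 13008 genes were called (10.6%), 678 higher (5.21%) and 699 lower (5.37%). Between NEUROG2AQ and control 14 were called (0.108%), 2 higher (0.0154%) and 12 lower (0.0923%). In probe sets the counts were 2515 (6.67%) for NEUROG2, 1242 higher (3.30%) and 1273 lower (3.38%), and 25 (0.0663%) for NEUROG2AQ, 3 higher (0.00796%) and 22 lower (0.0584%). At an unadjusted p of 0.05, 2596 probe sets (6.89%) passed between NEUROG2AQ and control, against 6148 (16.31%) between the 2 forms. With no difference at all, a share of about 0.05 would pass. Genes that NEUROG2 changed in the same direction against control and against NEUROG2AQ numbered 939, 538 higher and 401 lower. These 2 comparisons share the 4 NEUROG2 arrays, so their calls are not independent. Of the 939 genes, 10 were also called between NEUROG2AQ and control, 8 of them in the opposite direction and HSPA2 and NEUROG2 in the same direction. Changes that both forms made, with no call between them, numbered 2 genes, HSPB9 and SFRP2. A class of 10 genes, of which 8 also belong to the 939, was lower with NEUROG2AQ than with control and higher with NEUROG2 than with NEUROG2AQ.

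A further 438 genes, 140 higher and 298 lower, were called between NEUROG2 and control but not between the 2 forms. These could not be assigned, since a missed threshold does not show that the forms acted alike. The SoxB1 progenitor factor SOX2 differed from control by -0.77 with NEUROG2 (adjusted p = 0.0129) and by -0.79 with NEUROG2AQ (adjusted p = 0.176), and the direct difference was 0.02 with a 95% interval of -0.35 to 0.40. For SOX3 the direct difference was -0.17 ± 0.12, for the inhibitor of proneural factors ID3 -0.23 ± 0.14, for cyclin E1 (CCNE1) -0.22 ± 0.11 and for the neuronal tubulin TUBB3 0.32 ± 0.15. These 4 were called against control with NEUROG2 and not with NEUROG2AQ. For CCNE1, 1 of its 3 other probe sets was called lower with NEUROG2 than with NEUROG2AQ. Conversely, 321 genes (184 higher, 137 lower) were called between the forms but not between NEUROG2 and control.

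The Notch ligand genes DLL1 and JAG1 were higher with NEUROG2, and lower with NEUROG2AQ, than in control arrays. DLL1, a Notch ligand of newborn neurons, had log2 signals of 9.99, 10.28, 10.57 and 10.01 in NEUROG2 arrays, against 6.89, 7.26, 6.84 and 6.64 in NEUROG2AQ arrays and 8.43, 8.76, 8.48 and 8.52 in control arrays. The 3 groups did not overlap, with control in the middle. DLL1 was 3.30 ± 0.15 higher with NEUROG2 than with NEUROG2AQ (9.88-fold, adjusted p = 2.10e-09), and its other probe set was called in the same direction. JAG1, another Notch ligand, read 5.26, 5.67, 5.98 and 5.60 in NEUROG2 arrays, against 3.37, 3.59, 3.37 and 3.44 in NEUROG2AQ arrays and 4.20, 4.67, 4.39 and 4.90 in control arrays. Its groups were likewise separate and in the same order, with a difference of 2.19 ± 0.16 between the forms. The ubiquitin ligase gene NEURL1, whose product acts on Notch ligands, was 3.19 ± 0.15 higher with NEUROG2 than with NEUROG2AQ, and was not called between NEUROG2AQ and control (-0.07, adjusted p = 0.969).

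The Notch receptor gene differed by less, and the Notch targets named here were lower or not called. NOTCH1 read 8.09 to 8.19 in NEUROG2 arrays, against 6.95 to 7.16 in NEUROG2AQ arrays and 7.57 to 7.81 in control arrays (log2 signal), again with no overlap. It was 1.12 ± 0.09 higher with NEUROG2 than with NEUROG2AQ, while its 4 other probe sets were not called. The Notch target HES5 differed by 0.15 ± 0.15 and was not called, and its arrays overlapped. Of 30 measured Notch pathway genes, 6 were called higher, 2 lower and 22 not (26.7% called, against 9.69% of all genes). The median log2 difference was 0.16, against -0.01 over all genes. The rest of the called members, named after their values were seen, were NUMB (0.90) and LFNG (0.70), modifiers of Notch, and the Notch targets NRARP (-0.64) and HES4 (-0.94).

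Several proneural factors and 3 of their ID inhibitors were called higher with NEUROG2, while most of that list was not called. NHLH1, a helix-loop-helix factor of newly formed neurons, read 7.60, 8.36, 7.91 and 8.11 in NEUROG2 arrays, against 5.07, 5.27, 4.75 and 4.89 in NEUROG2AQ arrays and 5.76, 5.36, 5.30 and 5.32 in control arrays (log2 signal). Every NEUROG2 array lay above the others by over 1 on the log2 scale, and the difference between the forms was 3.0 ± 0.16. The 2 other probe sets of NHLH1 differed by -0.03 and 0.69, with 1 of them called. ATOH8 was 1.29 ± 0.14 higher. NEUROD4, a later factor of the cascade, was 0.45 ± 0.13 higher at signals close to background, with means of 2.84 in NEUROG2 and 2.39 in NEUROG2AQ arrays. That call was lost when any of NEUROG2 replicates 1, 3 and 4, NEUROG2AQ replicates 1 to 4 or control replicates 2 to 4 was left out, at an adjusted p of up to 0.161. NEUROD1 read 1.0 to 1.39 in all 8 arrays of the 2 forms, below every array median, and differed by 0.01 ± 0.10.

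The ID genes encode proteins that bind the E protein partners of proneural factors and so block them. ID1 read 11.66, 11.75, 11.66 and 11.68 in NEUROG2 arrays, against 9.54, 9.18, 9.54 and 9.73 in NEUROG2AQ arrays and 10.28, 9.90, 9.81 and 9.75 in control arrays. NEUROG2 arrays were separated from the other 8, and NEUROG2AQ arrays lay just under the control arrays without a call (-0.44, adjusted p = 0.428). ID1 was 2.19 ± 0.13 higher with NEUROG2 than with NEUROG2AQ, ID4 1.41 ± 0.12 and ID2 0.81 ± 0.10, whereas ID3 was not called. Of 20 measured genes of this list, 7 were called higher, 1 lower and 12 not (median 0.22, 40.0% called against 9.69% of all genes). The lower one was the NEUROG2 probe set itself at -0.74 ± 0.15.

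The early neuronal cascade held the largest share of increases among the 20 gene lists. The lists were chosen with earlier results of these data known, so that rank is a description with no test. Of 31 measured members, 16 were called higher, 1 lower and 14 not (54.8% called, against 9.69% of all genes). Their median log2 difference was 0.53. HES6 read 10.73, 11.11, 11.13 and 10.69 in NEUROG2 arrays, against 7.03, 7.18, 7.29 and 7.28 in NEUROG2AQ arrays and 8.78, 8.67, 8.64 and 8.38 in control arrays. TAGLN3 read 9.33, 9.76, 9.82 and 9.41 in NEUROG2 arrays, against 5.04, 5.29, 5.07 and 5.62 in NEUROG2AQ arrays and 6.38, 6.55, 6.22 and 6.09 in control arrays. In both genes the groups were separate and the control arrays lay between the forms. GFRA1, a receptor for the GDNF family, was 2.67 ± 0.19 higher with NEUROG2 than with NEUROG2AQ. The RNA-binding protein gene ELAVL4 was 0.73 ± 0.11 higher. CXCR4, the chemokine receptor, was the only member called lower (-0.85), while the gene of its ligand CXCL12 was 2.60 ± 0.18 higher.

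Genes of postmitotic neurons split into a strongly higher minority and an uncalled majority. The neurofilament gene NEFM read 8.80, 8.92, 9.11 and 9.0 in NEUROG2 arrays, against 5.72, 5.83, 5.76 and 5.53 in NEUROG2AQ arrays and 5.87, 6.05, 6.25 and 6.36 in control arrays. NEUROG2 arrays were over 2 higher on the log2 scale than any other array, and the difference between the forms was 3.25 ± 0.12 (9.48-fold). NEFL (2.54 ± 0.18) and the adhesion molecule NFASC (2.17 ± 0.11) were higher too. Of 48 measured members, 14 were called higher, 1 lower and 33 not (median 0.18, 31.2% called against 9.69% of all genes). The lower one, named after its values were seen, was the adhesion molecule NRCAM at -1.07. Of 23 measured factors that specify neuronal subtypes, 4 were called (17.4%, against 9.69% of all genes): VSX1 (1.16 ± 0.16), LHX1 (0.85 ± 0.13) and LHX5 (0.58 ± 0.15) were called higher and FOXD3 lower (-1.15 ± 0.21). LHX5, near background, lost its call without NEUROG2 replicate 1 or 3, or NEUROG2AQ replicate 1, 3 or 4, at an adjusted p of up to 0.0917.

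Most measured genes of G2 and mitosis were called lower with NEUROG2. Of 44 measured G2 and M phase genes, 31 were called lower and none higher (70.5% called, against 9.69% of all genes). Their median log2 difference was -0.92. The mean log2 signal of the list was 6.39 to 6.91 in NEUROG2 arrays, against 7.44 to 7.66 in NEUROG2AQ arrays and 6.97 to 7.48 in control arrays. No NEUROG2 array reached the range of either other group. In the pooled RNA of sorted cells, fewer dividing cells and less of these RNAs per cell cannot be told apart. The mitotic kinase gene NEK2 differed by -1.42 ± 0.14 and the centromere gene CENPI by -1.36 ± 0.14. MKI67, a marker of dividing cells, read 7.52, 8.43, 7.53 and 7.67 in NEUROG2 arrays, against 9.34, 9.59, 9.22 and 8.99 in NEUROG2AQ arrays and 7.31, 9.12, 9.50 and 9.32 in control arrays. The 2 forms did not overlap, but control replicate 1 read as low as the NEUROG2 arrays. The difference of -1.50 ± 0.37 was lost as a call without NEUROG2 replicate 1, 3 or 4 or NEUROG2AQ replicate 1, 2 or 3, at an adjusted p of up to 0.0778. With the 3' minus 5' difference as covariate the call was also lost (adjusted p = 0.0921). A trend and robust fit lost the call as well (adjusted p = 0.0757).

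DNA replication genes were called in the same direction. Of 51 measured members, 27 were called lower and none higher (median -0.56, 52.9% called against 9.69% of all genes). CDC45, a component of the replicative helicase, read 6.79, 6.91, 6.32 and 6.52 in NEUROG2 arrays, against 8.14, 8.14, 8.19 and 7.94 in NEUROG2AQ arrays and 7.80, 8.06, 8.21 and 8.06 in control arrays. NEUROG2AQ and control arrays shared a range well above the NEUROG2 arrays, and the forms differed by -1.47 ± 0.13. TK1, which makes thymidine nucleotides, differed by -1.33 ± 0.13, the checkpoint gene CLSPN by -1.12 ± 0.22 and the replication initiator MCM10 by -1.03 ± 0.19. CLSPN and MCM10 each had 1 other probe set that was not called. Against control, 24 members were called lower with NEUROG2 (47.1%, where 10.6% of all genes were called). None was called either way with NEUROG2AQ in limma. At an unadjusted p of 0.05, 4 were higher with NEUROG2AQ than with control and none lower.

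G1 and S phase regulators were mixed. Of 29 measured, 10 were called lower, 1 higher and 18 not (median -0.26, 37.9% called against 9.69% of all genes). The transcription factors E2F8 (-1.44 ± 0.19), MYC (-1.27 ± 0.16) and MYCN (-0.92 ± 0.10) were lower. Among the cyclins, CCNE2 differed by -1.05 ± 0.10, CCNA2 by -0.80 ± 0.13 and CCND1 by -0.73 ± 0.14. CCND2 ran the other way, with log2 signals of 8.10 to 8.30 in NEUROG2 arrays, against 7.74 to 7.93 in NEUROG2AQ arrays and 8.0 to 8.12 in control arrays. The forms did not overlap, and the difference of 0.38 ± 0.09 lost its call without NEUROG2 replicate 2 or NEUROG2AQ replicate 1 or 3 (adjusted p up to 0.0562). CCND3 (0.14 ± 0.11) and CCNE1 were not called, although 1 of the 3 other probe sets of CCNE1 was called lower.

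Genes that restrain division were higher in part. BTG2, an antiproliferative gene of neurogenic divisions, read 9.51, 9.72, 9.72 and 9.75 in NEUROG2 arrays, against 7.43, 7.56, 7.50 and 7.41 in NEUROG2AQ arrays and 8.19, 7.84, 7.83 and 7.75 in control arrays. NEUROG2 arrays lay well above the rest, and the difference between the forms was 2.20 ± 0.11 (4.59-fold). The homeobox gene PROX1 was 2.07 ± 0.13 higher, with a NEUROG2AQ mean of 2.36 close to background, and the stress-inducible growth arrest genes GADD45A and GADD45G were 1.75 ± 0.13 and 1.59 ± 0.15 higher. Against control, GADD45G differed by 0.05 with NEUROG2 and by -1.53 with NEUROG2AQ. The kinase inhibitor gene CDKN1B differed by 0.08 ± 0.11 and was not called. Of 26 measured members, 6 were called higher, 1 lower and 19 not (median 0.04, 26.9% called against 9.69% of all genes). The remaining called members, named after their values were seen, were BTG1 (0.69), CCNG2 (0.54) and the pocket protein gene RBL1 (-0.78).

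Several lists were also counted without the arrays that stood apart. Without NEUROG2AQ replicate 4, 27 G2 and M phase genes and 27 replication genes were called lower, and 15 early neuronal genes were called higher and 1 lower. Without it and control replicate 1, the counts were 39 and 31 lower, and 18 early neuronal genes higher and 1 lower. Adhesion genes gave 7 higher and 9 lower without NEUROG2AQ replicate 4 and 11 each way without both arrays, and neural crest markers gave 4 higher and 8 lower in either setting. Over all genes the shares called were 8.79% and 12.5% in these settings.

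**Figure D3:**
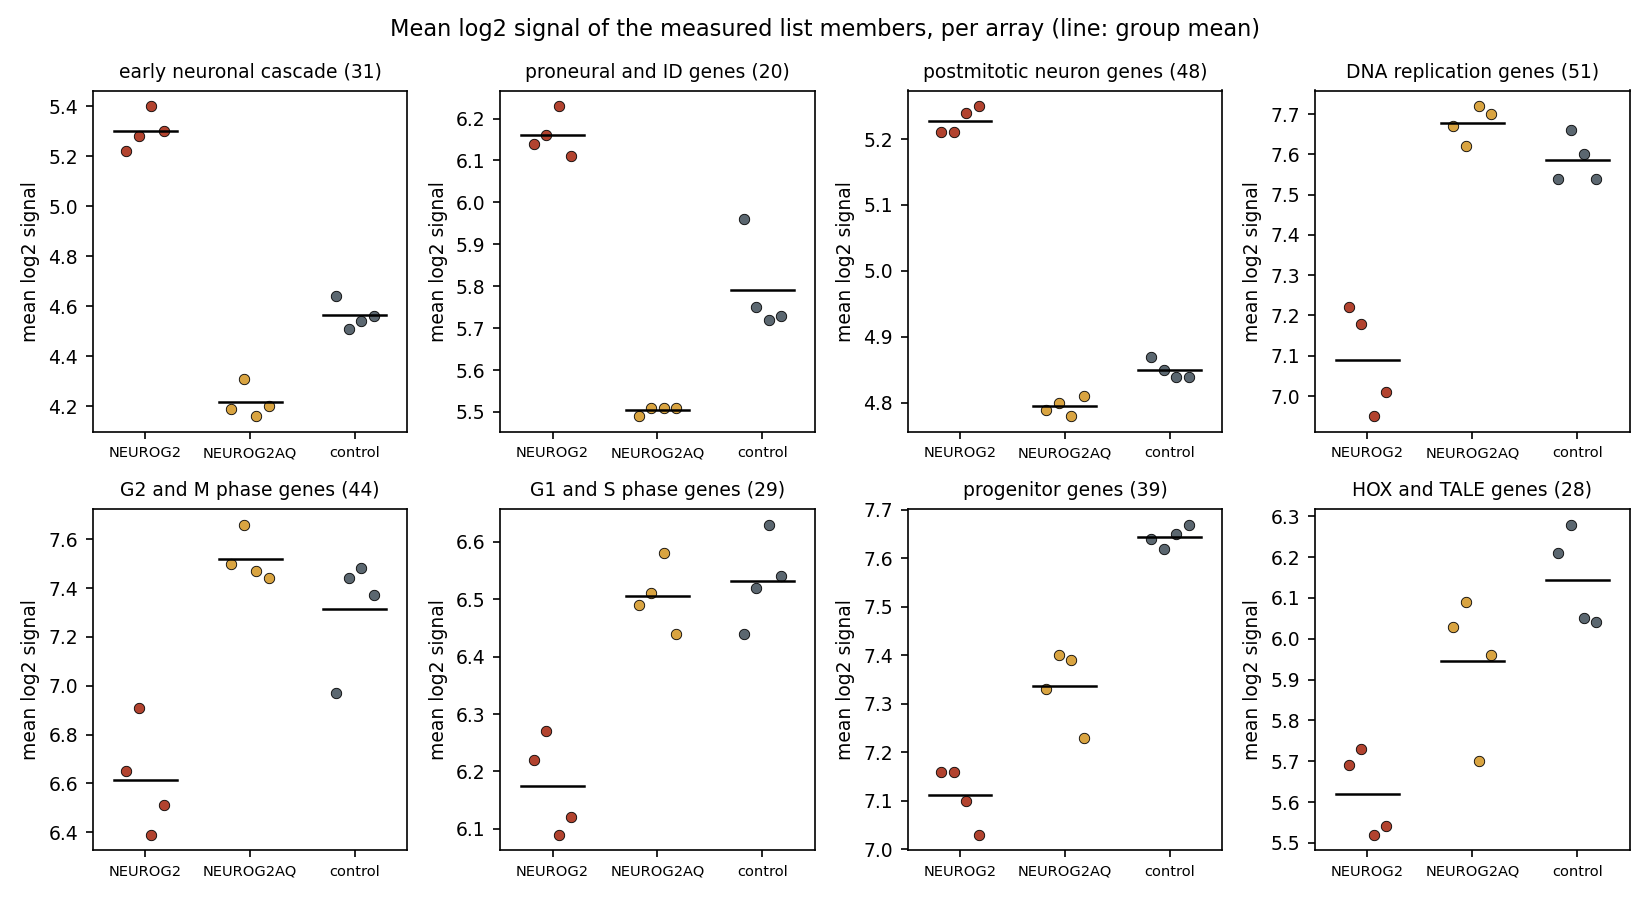
Mean log2 signal of the measured members of 8 gene lists in each array, with the group mean as a line (4 arrays a group). G2 and M phase genes read 6.39 to 6.91 in NEUROG2 arrays, against 7.44 to 7.66 in NEUROG2AQ arrays, and progenitor genes read lower in both forms than in every control array (7.62 to 7.67).

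Some progenitor genes were called lower with NEUROG2 and most were not called. Of 39 measured, 3 were called higher, 9 lower and 27 not between the forms (median -0.20, 30.8% called against 9.69% of all genes). Between NEUROG2 and control, 1 was called higher and 20 lower (median -0.48, 53.8% called against 10.6% of all genes). The median for NEUROG2AQ against control was -0.29, with NOTCH1 as the only call in limma. At an unadjusted p of 0.05, 19 of the 39 were lower with NEUROG2AQ than with control and none higher. Over all probe sets 6.89% passed in that comparison, in either direction. Mean log2 signals of the list were 7.03 to 7.16 in NEUROG2 arrays, against 7.23 to 7.40 in NEUROG2AQ arrays and 7.62 to 7.67 in control arrays. The groups formed 3 separate steps, NEUROG2 lowest. PAX6, a progenitor factor of the intermediate and ventral tube, read 8.54, 8.76, 8.49 and 8.31 in NEUROG2 arrays, against 9.37, 9.27, 9.41 and 9.25 in NEUROG2AQ arrays and 9.52, 9.75, 10.05 and 9.79 in control arrays. Its groups did not overlap, and it differed by -0.80 ± 0.12 between the forms. The dorsal factors MSX2 (-1.30 ± 0.13) and ZIC1 (-1.17 ± 0.15) and the zinc finger gene TSHZ3 (-1.21 ± 0.19) were lower as well.

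HOX genes, which mark position along the body axis, and their TALE cofactors were called in 1 direction. Of 28 measured, 8 were lower with NEUROG2 than with NEUROG2AQ, none higher and 20 not called (median -0.33). That is 28.6% called, against 9.69% of all genes, and the count was 5 without NEUROG2 replicate 3. HOXA4 read 7.02, 6.80, 6.89 and 6.37 in NEUROG2 arrays, against 7.88, 8.10, 7.68 and 7.88 in NEUROG2AQ arrays and 8.57, 8.31, 8.13 and 8.11 in control arrays. The 3 groups were separate, with NEUROG2AQ just below control, and the forms differed by -1.12 ± 0.15. HOXA6 (-0.92 ± 0.17), HOXA3 (-0.72 ± 0.13) and HOXD4 (-0.68 ± 0.12) were lower too, and each had 1 other probe set that was not called. Against control, 13 members were called lower with NEUROG2 (46.4%, where 10.6% of all genes were called). None was called with NEUROG2AQ in limma, where 5 were lower at an unadjusted p of 0.05. Mean log2 signals of the list overlapped between the forms, at 5.52 to 5.73 in NEUROG2 arrays, against 5.70 to 6.09 in NEUROG2AQ arrays and 6.04 to 6.28 in control arrays.

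Signalling genes moved in both directions. BAMBI, a decoy receptor that dampens BMP signals, read 10.11, 10.31, 10.65 and 10.25 in NEUROG2 arrays, against 6.70, 6.93, 7.09 and 6.59 in NEUROG2AQ arrays and 7.40, 7.32, 7.43 and 7.47 in control arrays. NEUROG2AQ arrays lay below every control array without a call (-0.58, adjusted p = 0.191), and BAMBI was 3.50 ± 0.13 higher with NEUROG2 than with NEUROG2AQ (11.3-fold). ALDH1A3, an enzyme that makes retinoic acid, was 1.96 ± 0.16 higher, with a NEUROG2AQ mean of 1.73 below the array medians. With CYP26A1 lower, 1 enzyme of synthesis and 1 enzyme of breakdown of retinoic acid moved in opposite directions. ALDH1A2, another enzyme of synthesis on the list, was not called in limma (0.56, adjusted p = 0.347). Of 78 measured genes of the retinoid, SHH, FGF, BMP and WNT pathways, 6 were called higher, 8 lower and 64 not (median -0.11). Together 17.9% were called, against 9.69% of all genes. Against control the counts with NEUROG2 were 6 higher and 22 lower (35.9% called, against 10.6% of all genes).

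Between the forms, genes of adhesion, guidance and migration and genes of stress showed no common direction. CXCL12, a chemokine that guides migrating cells, read 7.81, 7.71, 7.91 and 7.96 in NEUROG2 arrays, against 4.98, 5.60, 5.62 and 4.77 in NEUROG2AQ arrays and 6.34, 5.85, 5.86 and 6.18 in control arrays. NEUROG2 arrays were the highest, and every NEUROG2AQ array lay below every control array without a call (-0.82, adjusted p = 0.17). The guidance genes PLXNA4 (1.53 ± 0.20, from a NEUROG2AQ mean of 2.59 close to background) and SEMA6D (1.33 ± 0.23) were higher, and CRB2, of the apical polarity complex, was lower (-1.16 ± 0.13) at 1 of its 6 probe sets. Of 68 measured members of that list, 10 were called higher, 7 lower and 51 not (median 0.02). The share called in that list was above the 9.69% of all genes. At an unadjusted p of 0.05 against control, none of the 68 was higher and 20 were lower with NEUROG2AQ. With NEUROG2, 11 were higher and 22 lower. Over all probe sets 6.89% passed with NEUROG2AQ and 17.21% with NEUROG2, in either direction. Of 31 stress, immediate early and p53 genes, 4 were called higher, 2 lower and 25 not (median -0.06). In the stress list 19.4% were called, against 9.69% of all genes. Those called higher included the p53 target TP53INP1 (0.98 ± 0.11) and the survival gene BCL2L1 (0.90 ± 0.13). ATF3, an immediate early factor, differed by -1.18 ± 0.16 with a NEUROG2 mean of 2.32 close to background. Its difference from control was -0.40 with NEUROG2 (adjusted p = 0.185) and 0.79 with NEUROG2AQ (adjusted p = 0.0968). Neither was called in limma. At an unadjusted p of 0.05 against control, 7 stress genes were higher and 1 lower with NEUROG2AQ. With NEUROG2, 10 stress genes were higher and 6 lower.

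**Figure D4:**
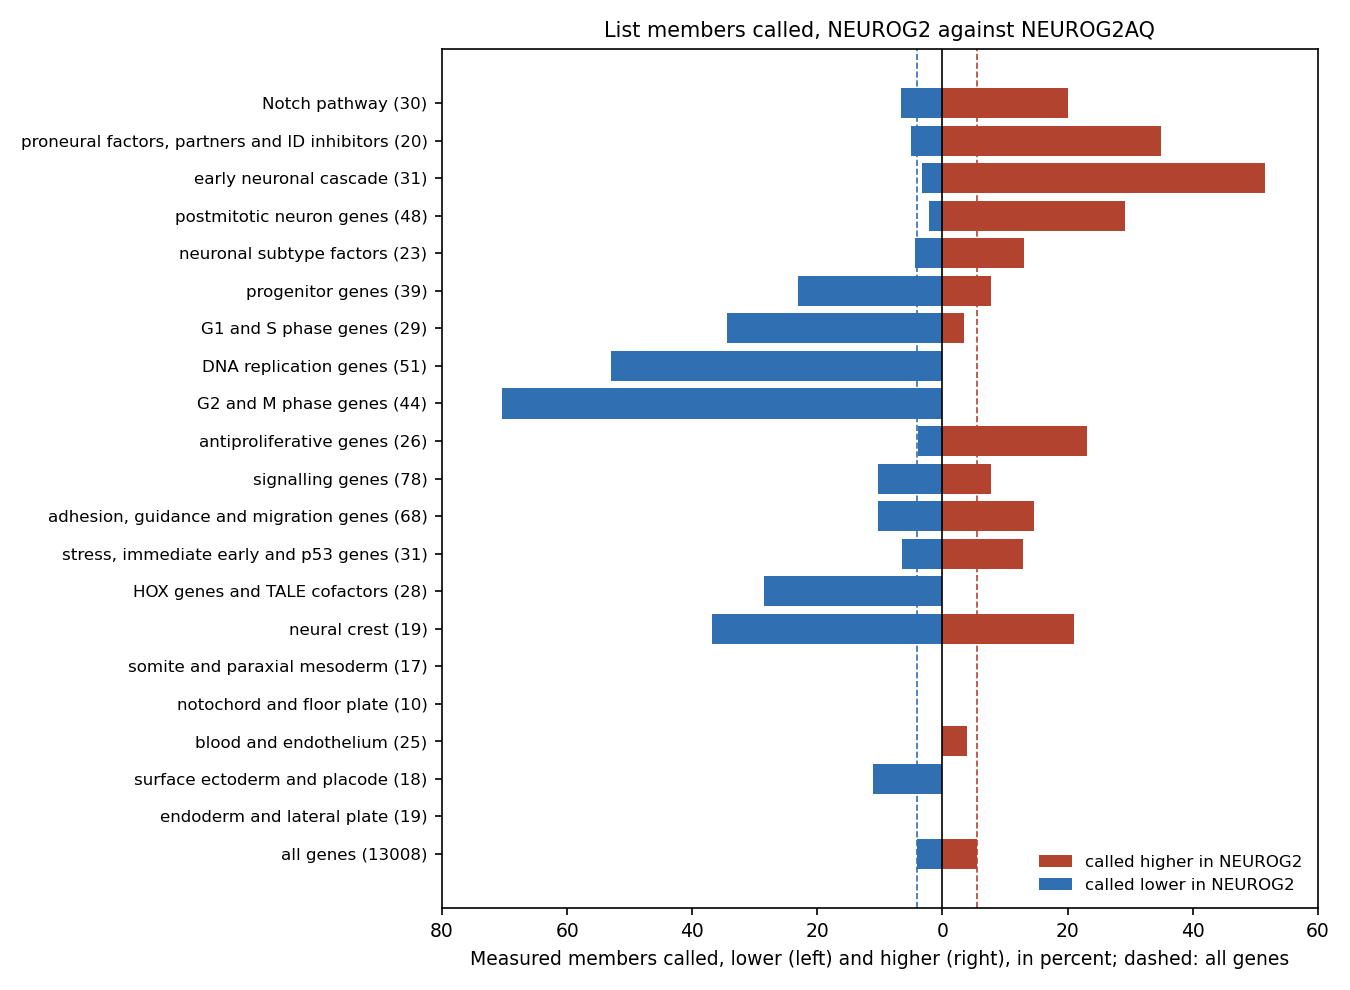
Share of the measured members of each gene list called higher (right) or lower (left) with NEUROG2 than with NEUROG2AQ, in percent, with the number measured in brackets and the share over all 13008 genes as dashed lines. G2 and M phase genes have the largest share called (70.5%, all lower), followed by neural crest markers (57.9%, 4 higher and 7 lower) and the early neuronal cascade (54.8%, 16 higher and 1 lower), against 9.69% of all genes.

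Changes called with both forms and not between them were few and concerned a heat shock gene and a secreted WNT antagonist. This class needs a call of NEUROG2AQ against control, which 14 of 13008 genes had, so its size depends on the threshold. At an unadjusted p of 0.05, 19 of 39 progenitor genes were lower than control with NEUROG2AQ and 25 with NEUROG2 (0 and 3 higher). HSPB9, a small heat shock protein, had log2 signals of 10.59, 10.31, 10.19 and 10.83 in NEUROG2 arrays and 10.16, 10.31, 10.39 and 10.29 in NEUROG2AQ arrays, against 8.42, 8.57, 8.14 and 8.60 in control arrays. The 2 forms overlapped, and all 8 arrays lay above every control array by over 1 on the log2 scale. HSPB9 was 2.05 above control with NEUROG2 (adjusted p = 2.08e-07) and 1.86 above control with NEUROG2AQ (adjusted p = 4.60e-05), and the direct difference was 0.19 with a 95% interval of -0.11 to 0.49. SFRP2 read 9.60, 9.70, 9.67 and 9.60 in NEUROG2 arrays and 9.79, 9.80, 9.58 and 9.53 in NEUROG2AQ arrays, against 10.35, 10.42, 10.24 and 10.24 in control arrays. It was lower in all 8 arrays of the forms than in any control array, and the direct difference was -0.03 with a 95% interval of -0.23 to 0.17. The call of SFRP2 against control with NEUROG2AQ was lost without NEUROG2AQ replicate 3 or 4 or control replicate 2, at an adjusted p of up to 0.113 over all alternatives.

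HSPA2, of the Hsp70 family, was higher than control with both forms and also differed between them. Its log2 signal was 10.25, 9.94, 9.40 and 10.28 in NEUROG2 arrays, against 8.36, 9.10, 8.83 and 9.15 in NEUROG2AQ arrays and 7.06, 7.38, 6.97 and 7.42 in control arrays. The groups formed separate steps, with NEUROG2AQ in the middle, 1.66 above control (adjusted p = 0.00346) and 1.11 ± 0.20 below NEUROG2 (adjusted p = 0.00287). The NEUROG2 probe set was its mirror, called lower than control with each form and lower with NEUROG2 than with NEUROG2AQ.

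The remaining calls of NEUROG2AQ against control were decreases, and NEUROG2 lay above NEUROG2AQ in almost all of them. Of 22 probe sets lower with NEUROG2AQ than with control, 20 were called higher with NEUROG2 than with NEUROG2AQ, 12 of them also higher with NEUROG2 than with control. Choosing probe sets for low NEUROG2AQ values raises the difference between the forms, which uses the same NEUROG2AQ arrays. The count of 20 is therefore a description with no test. In genes, 8 were called in opposite directions against control, higher with NEUROG2 and lower with NEUROG2AQ: DLL1, HES6, TAGLN3, GFRA1, JAG1, NIN, AMOTL2 and NOTCH1. DLL1 was 1.66 above control with NEUROG2 (adjusted p = 4.04e-06) and -1.64 with NEUROG2AQ (adjusted p = 0.000123), and HES6 was 2.30 above control with NEUROG2 and -1.42 with NEUROG2AQ (adjusted p = 0.000113). NIN, which encodes ninein of the centrosome, and AMOTL2, of the angiomotin family of junction proteins, differed by 2.15 ± 0.13 and 1.25 ± 0.11 between the forms. They and SULF1 fall outside the rule for naming genes and are named because the class is given whole.

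GADD45G and SULF1 were called lower than control with NEUROG2AQ and were not called with NEUROG2. GADD45G read 6.10, 6.27, 6.35 and 6.42 in NEUROG2 arrays, against 4.90, 4.93, 4.47 and 4.50 in NEUROG2AQ arrays and 5.91, 6.21, 6.56 and 6.24 in control arrays. NEUROG2 and control arrays overlapped, and every NEUROG2AQ array lay below all of them. Its difference from control was 0.05 with NEUROG2 (adjusted p = 0.914) and -1.53 with NEUROG2AQ (adjusted p = 0.000174), and its other probe set was called in the same direction between the forms. SULF1, an enzyme that trims heparan sulphate, was 0.38 above control with NEUROG2 (adjusted p = 0.156) and -0.88 with NEUROG2AQ (adjusted p = 0.0321).

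How firm these NEUROG2AQ calls were differed between genes. Those of DLL1, HES6, GADD45G, HSPB9 and HSPA2 held under all 23 alternatives tried. NOTCH1 and JAG1 were called under 17 and AMOTL2 under 16, and when all probe sets of a gene were averaged in place of taking the brightest their adjusted p was 0.786, 0.315 and 0.264. TAGLN3 and SFRP2 held under 18, NEUROG2 under 12, SULF1 under 11, NIN under 10 and GFRA1 under 8. The calls of SULF1 (adjusted p = 0.498) and NIN (adjusted p = 0.421) were also lost when all probe sets were averaged. The number of probe sets called between NEUROG2AQ and control was 25 with all arrays. It was 13, 14, 10 and 11 without NEUROG2AQ replicates 1, 2, 3 and 4, and 11 without control replicate 2. The genes changed by both forms were 1 without NEUROG2AQ replicate 3 or 4 or control replicate 2, and 4 without control replicate 1. The class of 10 genes lower with NEUROG2AQ held 5, 6, 4 and 5 without NEUROG2AQ replicates 1, 2, 3 and 4, and 6 without control replicate 2 or 4.

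**Figure D5:**
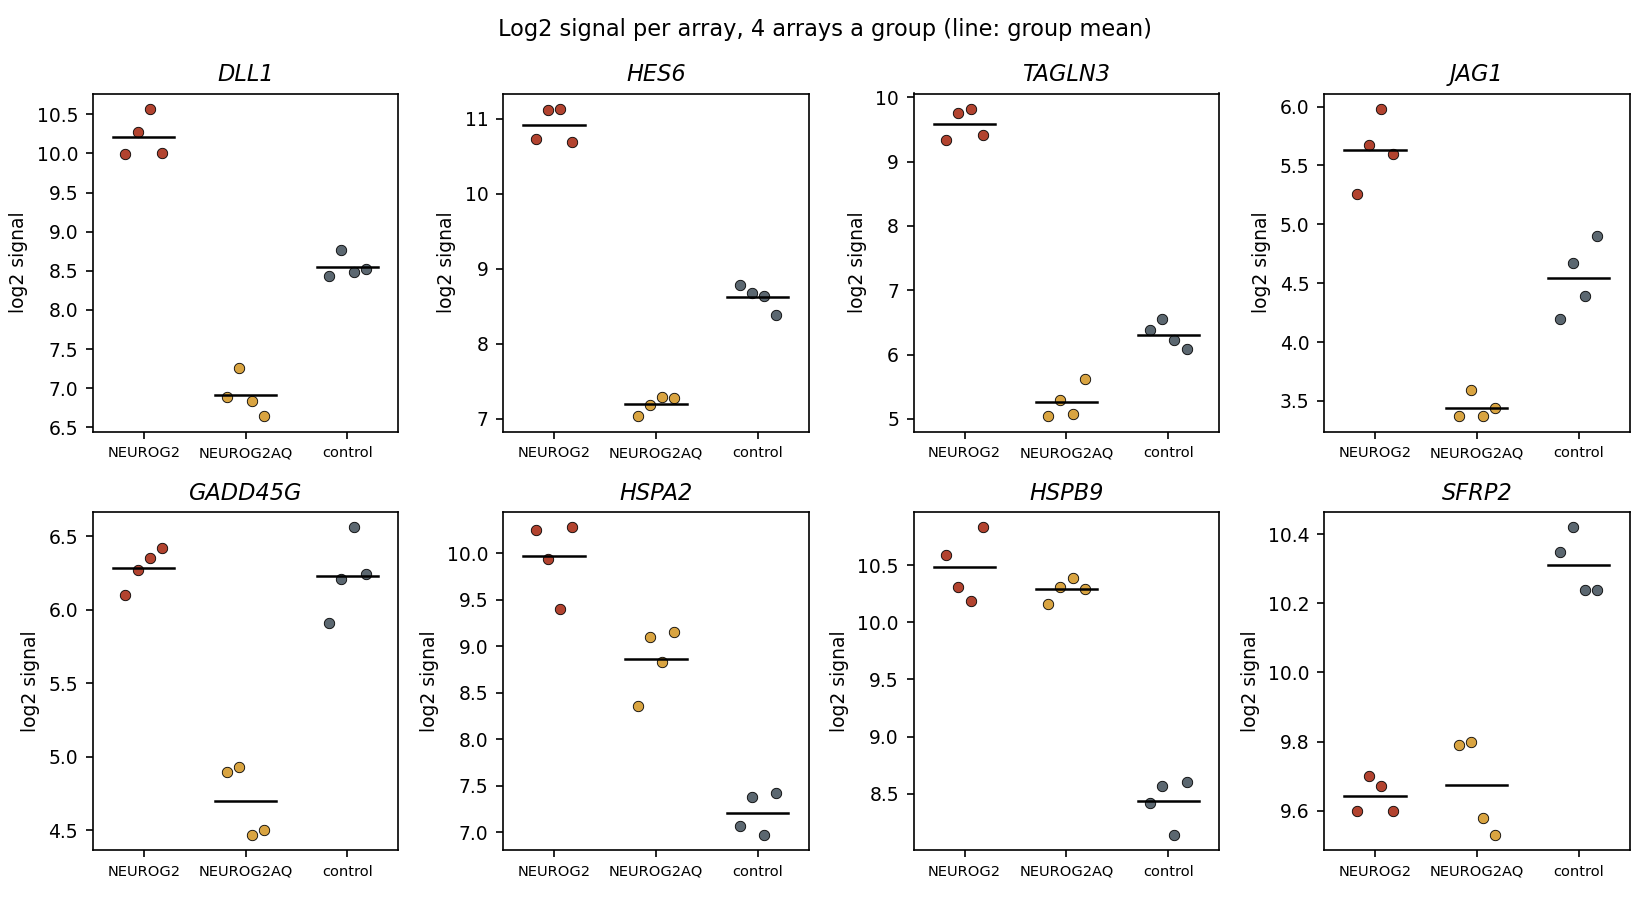
Log2 signal in each array of 8 genes (points, 4 a group) with the group mean (line). DLL1, HES6, TAGLN3 and JAG1 read highest with NEUROG2 and lowest with NEUROG2AQ, GADD45G is lowest with NEUROG2AQ alone, HSPA2 forms steps, and HSPB9 and SFRP2 have overlapping values in the 2 forms.

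Genes that mark other cell types were examined as well. Neural crest markers moved in both directions, with 57.9% called against 9.69% of all genes. Of 19 measured, 7 were called lower with NEUROG2 than with NEUROG2AQ, 4 higher and 8 not (median -0.29). Their mean log2 signal was 5.36 to 5.58 in NEUROG2 arrays, against 5.61 to 5.89 in NEUROG2AQ arrays and 5.78 to 5.95 in control arrays. SOX10, which marks neural crest cells, read 4.25, 4.43, 3.94 and 4.51 in NEUROG2 arrays, against 5.82, 5.97, 5.70 and 5.37 in NEUROG2AQ arrays and 5.87, 5.82, 5.40 and 6.03 in control arrays. SOX10, SNAI2 and FOXD3 were lower in every NEUROG2 array than in any NEUROG2AQ array. The repressor gene SNAI1, related to SNAI2, was 1.37 ± 0.21 higher, and ID2, also on this list, 0.81 ± 0.10 higher. The part of neural crest cells in the lower HOX, progenitor and cell cycle genes was not tested.

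Few markers of mesoderm, endoderm and blood were called between the forms, where 9.69% of all genes were called. Lists this short would hold few calls at that share. None of 17 somite, 10 notochord and floor plate or 19 endoderm and lateral plate markers was called between the forms in limma, and at an unadjusted p of 0.05 there were 2, 1 and 0. TWIST1 and MEOX1, the somite markers that differed most, were at 0.80 ± 0.46 and 0.48 ± 0.34, and NOG and NOTO, of the notochord list, at -0.51 ± 0.15 and 0.45 ± 0.34. The mean log2 signal of somite markers was 2.89 to 3.21 in NEUROG2 arrays, against 2.73 to 2.99 in NEUROG2AQ arrays, near the array medians, and reached 3.70 in control replicate 1. NOG passed in 11 alternatives, among them without NEUROG2 replicate 1, NEUROG2AQ replicate 3 or control replicate 1, at an adjusted p of at most 0.0473. TTR and HAND2 led the endoderm and lateral plate list at 0.60 ± 0.40 and -0.29 ± 0.14. TTR passed with the 8 arrays of the 2 forms alone (adjusted p = 0.0103) and without control replicate 4 (adjusted p = 0.0078), which read 5.74, against 3.26 to 3.39 in the other control arrays. Of 25 blood and endothelial markers, SOX18 was called higher (0.51 ± 0.14, adjusted p = 0.0436), with overlapping arrays. That call was lost without NEUROG2 replicate 2, 3 or 4, NEUROG2AQ replicate 2, 3 or 4 or control replicate 2, 3 or 4, at an adjusted p of up to 0.13. Of 18 surface ectoderm and placode markers, DLX5 (-0.82 ± 0.10) and TFAP2A (-0.60 ± 0.16) were called lower. These are 11.1% of the list, close to the 9.69% of all genes. TFAP2A, also a neural crest marker, lost its call without NEUROG2 replicate 1 or 2 or NEUROG2AQ replicate 1, 2 or 3 (adjusted p up to 0.108). With the 3' minus 5' difference as covariate TFAP2A was not called either (adjusted p = 0.141).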

How the data were processed

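RNA of 12 arrays (4 a group, 50 ng total RNA each) was hybridised to Affymetrix chicken arrays. The deposited values are log2 intensities, 1 per probe set, summarised by RMA with GCOS and the affy package per the submitters' processing notes, which give no versions. The log2 base was inferred from their range of 0.49 to 13.97. Of 38535 probe sets, 842 that do not carry the chicken array prefix, controls and reporters included, were left out, leaving 37693. Symbols came from the platform annotation, updated through the RefSeq gene table of assembly GRCg7b. They named 27166 probe sets once and 177 several times, and 10350 had no symbol. The brightest probe set over 12 arrays stood for each of 13008 genes, of which 7334 had several. Arrays are not counted in reads, so their number sets the precision.

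A single limma model (version 3.58.1, R 4.3.3, functions lmFit and eBayes) took in all 3 groups, and p-values were adjusted by Benjamini-Hochberg over 37693 probe sets, threshold 0.05. The procedure was tested on simulated data. Genes named were the 10 highest and 10 lowest differences between the forms without overlap of arrays, up to 5 per direction of the smaller classes, up to 4 called members of each list (the 2 largest where none was called) and a set of neurogenesis and cell cycle genes. The members and lists were chosen with earlier results of these data known. Alternatives were other scalings, probe set rules, fits, filters and arrays left out. The labels do not say whether equal replicate numbers pair arrays, and the main fit used no pairing. Deviations of same-numbered NEUROG2 and NEUROG2AQ arrays correlated at -0.10, 0.16, -0.11 and -0.02. A planned count of E-boxes in promoters was not made.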

Additional observations from a re-analysis of the deposited data

Results flagged for a closer look

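In 98 named genes, the 4 NEUROG2 and the 4 NEUROG2AQ arrays were each searched for an array far from the other 3, and 11 of 196 groups held one. Chance flags about 1 group in 20. NEUROG2AQ replicate 4, which also stood apart on the second principal component, held log2 signals of 6.28 for SGO1 (others 6.59 to 6.65), 4.44 for F3 (4.73 to 4.77) and 7.97 for HOXA3 (8.49 to 8.55). NEUROG2AQ replicate 2 held 1.27 for ATOH7 (1.08 to 1.10), 9.03 for ID2 (9.28 to 9.33) and 7.93 for CCND2 (7.74 to 7.77), and NEUROG2AQ replicate 3 held 10.13 for CCND1 (9.91 to 9.93). Among NEUROG2 arrays, replicate 1 held 9.51 for BTG2 (9.72 to 9.75), replicate 2 held 8.43 for MKI67 (7.52 to 7.67), replicate 3 held 5.16 for CYP26A1 (5.84 to 5.85) and replicate 4 held 9.90 for ID2 (10.07 to 10.09).

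Against the same control arrays, 8 genes were called higher with NEUROG2 and lower with NEUROG2AQ. That choice fixes the sign of the difference between the forms, which is given as a description with no test. The log2 difference was 4.32 for TAGLN3, 3.72 for HES6, 3.30 for DLL1, 2.67 for GFRA1, 2.19 for JAG1, 2.15 for NIN, 1.25 for AMOTL2 and 1.12 for NOTCH1.

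Outside the probe sets tested, 1 reporter probe set read 3.70 ± 0.24 in NEUROG2 and 3.65 ± 0.24 in NEUROG2AQ arrays, above 3.35 ± 0.06 in control arrays (log2 signal, SD, n = 4). It was picked from 57 reporter probe sets because all arrays of a form lay above every control array, so that separation follows from the choice. The lowest NEUROG2AQ array read 3.41 and the highest control array 3.40.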

How the results depend on the processing

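No named gene with a call between the forms changed direction under the alternatives tried, and directions of other probe sets were not followed. With 1 probe set a gene, 1442 features were called between the forms and 1579 between NEUROG2 and control. When the probe sets of a gene were averaged the counts were 1315 and 1438, and 14 for NEUROG2AQ against control, with 6 genes changed by both forms and 6 by NEUROG2AQ alone or oppositely. Both settings test fewer features. An added limit of 1 on the log2 scale left 574 between the forms, 537 for NEUROG2 and 14 for NEUROG2AQ against control, 342 genes between the forms, 253 that NEUROG2 changed one way against both control and NEUROG2AQ, 1 changed by both forms and 6 by NEUROG2AQ alone. Using only the 2 groups compared gave 8 probe sets for NEUROG2AQ against control and classes of 1 and 3 genes, from fewer arrays. With a trend and robust fit, 44 probe sets were called between NEUROG2AQ and control and 8 genes changed by both forms. Genes changed by both forms were 4 with the 3' minus 5' difference as covariate and 1 without both control replicate 1 and NEUROG2AQ replicate 4. In these the cause was not tested.

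Leaving out each array in turn gave 1744 to 2940 probe sets between the forms, 1771 to 3253 between NEUROG2 and control and 10 to 30 between NEUROG2AQ and control. In genes it gave 991 to 1635 between the forms, 729 to 1175 that NEUROG2 changed one way against both, 1 to 4 changed by both forms and 4 to 10 by NEUROG2AQ alone. The count between the forms was 2080 without NEUROG2AQ replicate 4. With the replicate number as a block, 2249 probe sets were called, of which 2076 were called without it, and 4 genes changed by both forms. In the pairing check, 2 of 8 arrays correlated best with their own number. With the 3' minus 5' difference as covariate, 2090 probe sets were called between the forms. Of these, 1776 were called without it, which is 77.7% of the main calls. NEUROD4, MKI67, TFAP2A and LHX5 lost their call with that covariate. Higher calls made up 60.6% of all calls between the forms. Cyclic loess moved that share to 64.5% and centring on array medians to 55.8%. Of 98 named genes, NEUROD4, SOX18, MKI67, TFAP2A, LHX5 and CCND2 lost their call under some alternative, and NOG and TTR gained one. The E-box alternatives were not run, since no promoter sequences were used here. Small differences near the array medians are limited by signal over background.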

Other observations

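Beyond the genes described above, the next 10 in each direction included secreted and signalling genes among the increases and further division genes among the decreases. They are ranks 11 to 20 of the difference between the forms, named after their values were seen. PENK, the precursor of enkephalin peptides, averaged 9.54 ± 0.20 in NEUROG2 arrays and 6.05 ± 0.32 in NEUROG2AQ arrays (log2 signal, SD, n = 4), a difference of 3.49 ± 0.24 (SE). WFDC1, a secreted protein, was 3.31 ± 0.14 higher, and the matrix genes EMILIN3 and OLFML2B were 3.08 ± 0.33 and 3.07 ± 0.17 higher. The other EMILIN3 probe set differed by -0.03 and was not called. RASD2, a small GTPase of striatal neurons in mice, and the neural adhesion gene MDGA1 were 3.45 ± 0.12 and 3.16 ± 0.15 higher from NEUROG2AQ means of 2.46 and 2.72, below the array medians.

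Among the decreases, EXO1, a nuclease of DNA repair, differed by -1.47 ± 0.19, and CENPC, which builds the kinetochore, by -1.40 ± 0.15. IL17RD, an inhibitor of FGF signalling, differed by -1.44 ± 0.27, the formin gene DIAPH3 by -1.41 ± 0.28 and the chromatin gene ING2 by -1.37 ± 0.17. The NEUROG2 mean of DIAPH3, 2.71, lay below the array medians, and IL17RD, DIAPH3 and ING2 each had 1 other probe set that was not called. Control replicate 1 read lowest of the control arrays for EXO1 (7.03, others 7.84 to 8.20) and DIAPH3 (2.78, others 3.83 to 4.49). Its part in these values was not tested.

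A reporter probe set outside the tests read 5.08 to 5.51 in NEUROG2 arrays and 4.51 to 5.12 in NEUROG2AQ arrays, against 6.99 to 7.56 in control arrays (log2 signal). The 2 forms overlapped, and both lay below every control array. Another 2 reporter probe sets read at least 13.79 in all 12 arrays.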
